A study of Mus musculus with 6 samples.

Results

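The mitochondrial ribosomal protein genes described here are the genes whose symbol is Mrpl or Mrps followed by a number and at most 1 letter. They were measured in lumbar dorsal root ganglia (DRGs) by Affymetrix Mouse Gene 2.0 ST arrays. For each gene the probe set that is annotated to that symbol alone was taken, and the one with the highest mean over the 6 arrays where there was more than 1. This gave 71 of the 22180 genes on the arrays with a probe set of their own, of which 43 encode proteins named for the large subunit (Mrpl) and 28 proteins named for the small subunit (Mrps). A further 7 symbols of the family (Mrpl30, Mrpl33, Mrpl41, Mrpl43, Mrpl44, Mrpl53 and Mrps6) share their probe sets with a neighboring or similar gene and were not counted. The study asked what loss of the transcriptional corepressor HDAC4 does to sensory neurons, and these arrays compare 3 HDAC4 Nav1.8 cKO samples with 3 wild-type samples (genotype HDAC4 fl/fl), all from naïve adult mice of the C57Bl/6 strain. Both groups carry the floxed Hdac4 allele, and in the cKOs a Cre recombinase driven by the Nav1.8 promoter deletes it. Nav1.8-Cre acts mainly in nociceptors, so large-diameter neurons, glia and the other cells of the ganglion keep the gene. Whether each array stands for 1 animal or for pooled animals is not stated, so p values measure the spread between these samples. In whole ganglia, fewer cells of a type and less RNA per cell cannot be told apart.

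Mitochondrial ribosomes translate the few messenger RNAs made from mitochondrial DNA, which encode core subunits of the respiratory chain and of ATP synthase. The ribosomal RNAs are also made in the organelle, but every protein of the particle is encoded in the nucleus, made in the cytosol and imported. The small subunit binds the messenger RNA and decodes it, and the large subunit joins the amino acids and passes the new chain to the inner membrane through its exit tunnel. Part of the proteins belong to families shared with bacterial ribosomes, and the rest are found only in mitochondria.

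Promoters are shown first because the family lies on 17 chromosomes and shares regulatory letters that the symbol rule did not use. The sequences are from RefSeq (mouse build GRCm38.p6), each with 250 bases before and 50 after the annotated gene start, and 62 of the 71 genes had an entry. Capitals mark matches, on either strand, to 4 motifs known from such genes: GCGCNTGCG for nuclear respiratory factor 1 (NRF1), CCGGAA for ETS factors such as GABP, AAGATGG for YY1 and TATAAA for a TATA box. A match is a run of letters, not a binding site. Of the 9 genes whose cKO and wild-type arrays did not overlap, 6 had a promoter entry. Those of Mrpl57, Mrpl39 and Mrpl37 hold a run and are shown, and those of Mrpl47, Mrps2 and Mrps36 hold none of the 4. The promoter of Mrps36, the gene with the largest difference in the family, stands here for these 3. That of Mrps11 is shown because it also holds the start of a second member, Mrpl46, read the other way.
Mrpl57, chr14:57825989-57826288, strand +: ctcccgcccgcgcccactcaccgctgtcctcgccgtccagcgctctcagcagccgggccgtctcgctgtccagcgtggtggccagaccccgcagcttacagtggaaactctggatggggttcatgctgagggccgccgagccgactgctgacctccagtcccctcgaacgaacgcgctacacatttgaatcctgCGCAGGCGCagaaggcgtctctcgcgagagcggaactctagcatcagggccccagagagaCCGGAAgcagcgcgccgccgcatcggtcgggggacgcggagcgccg
Mrpl39, chr16:84735195-84735494, strand -: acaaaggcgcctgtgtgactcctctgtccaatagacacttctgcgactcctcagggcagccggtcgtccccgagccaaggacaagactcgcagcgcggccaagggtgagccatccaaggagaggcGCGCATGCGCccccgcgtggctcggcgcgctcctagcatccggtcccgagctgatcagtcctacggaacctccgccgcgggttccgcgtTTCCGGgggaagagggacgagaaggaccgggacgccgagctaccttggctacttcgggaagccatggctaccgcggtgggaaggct
Mrpl37, chr4:107066817-107067116, strand -: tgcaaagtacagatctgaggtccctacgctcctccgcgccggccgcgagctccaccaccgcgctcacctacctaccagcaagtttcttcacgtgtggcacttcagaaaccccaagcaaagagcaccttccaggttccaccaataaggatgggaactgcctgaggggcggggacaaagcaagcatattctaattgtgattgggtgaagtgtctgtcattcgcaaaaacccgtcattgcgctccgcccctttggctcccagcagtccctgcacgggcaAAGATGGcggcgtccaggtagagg
Mrps11, chr7:78782881-78783180, strand +: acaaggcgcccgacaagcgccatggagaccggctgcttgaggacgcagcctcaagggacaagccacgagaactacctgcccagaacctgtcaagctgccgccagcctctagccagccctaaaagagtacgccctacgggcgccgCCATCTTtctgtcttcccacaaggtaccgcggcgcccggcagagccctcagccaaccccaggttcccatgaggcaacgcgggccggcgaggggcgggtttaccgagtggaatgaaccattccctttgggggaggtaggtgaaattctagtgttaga
Mrps36, chr13:100744610-100744909, strand -: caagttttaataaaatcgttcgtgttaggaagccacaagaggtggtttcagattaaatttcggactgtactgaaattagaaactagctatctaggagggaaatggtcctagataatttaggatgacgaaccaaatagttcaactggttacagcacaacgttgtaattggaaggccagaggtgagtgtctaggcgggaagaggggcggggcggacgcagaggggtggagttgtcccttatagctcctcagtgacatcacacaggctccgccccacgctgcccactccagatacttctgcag

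The Mrpl57 promoter holds an NRF1 run at bases 195 to 203 of the 300 and an ETS run at bases 255 to 260, just after the start. In Mrpl39 the 2 NRF1 matches lie on opposite strands and share all but 1 base (bases 126 to 134 and 127 to 135), upstream of an ETS run at bases 215 to 220. The YY1 run of Mrpl37 lies after the start, at bases 277 to 283. The ETS run was the commonest of the 4 and was found in 34 of the 62 promoters (54.8%), against 15.2% of all 27025 promoters and 19.1% of the 17491 promoters of protein-coding genes. The NRF1 run was in 15 (24.2%, against 6.59% of all promoters) and the YY1 run in 13 (21%, against 6.48%), while a TATA box was in 4 (6.45%, against 14.2%). The subunits were alike in this: the ETS run was in 19 of 37 large-subunit and 15 of 25 small-subunit promoters, and the NRF1 run in 10 and 5. The promoters were also rich in G and C, with a median of 58.2%, against 52.7% in all promoters and 56.3% in those of protein-coding genes. Nuclear-encoded respiratory chain genes had the ETS run in 40% and the NRF1 run in 29.2% of 65 promoters, and cytosolic ribosomal protein genes in 51% and 12.2% of 49. The median log2 fold change was -0.01 in the 34 genes with an ETS run and -0.01 in the 28 without. With an NRF1 run it was -0.03 (5 of 15 positive), and without one 0.00 (22 of 47 positive). For YY1 it was 0.02 with the run (7 of 13 positive) and -0.01 without it (20 of 49 positive). These differences were not tested.

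**Figure D1:**
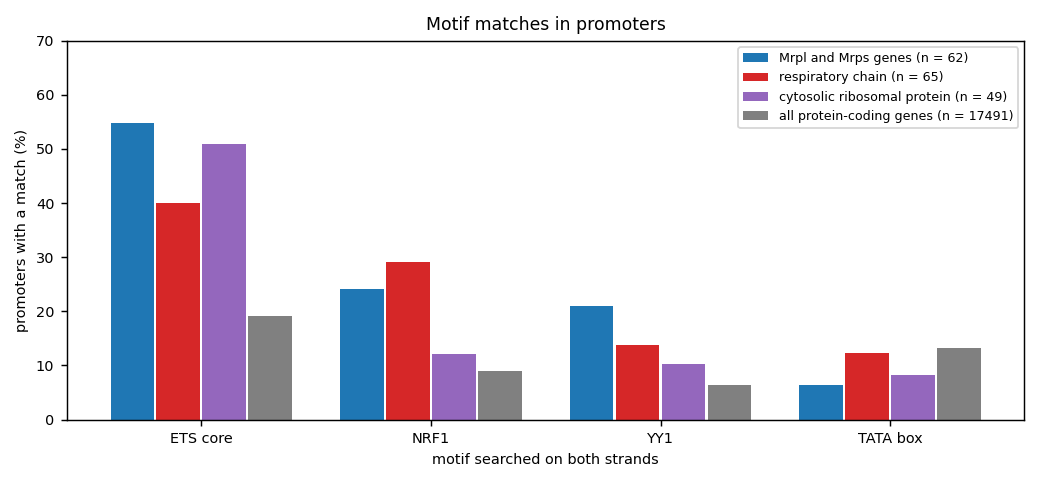
Share of promoters (%, y axis) with at least 1 match to each of the 4 motifs (x axis) in Mrpl and Mrps genes, respiratory chain genes, cytosolic ribosomal protein genes and all protein-coding genes. The ETS run was in 54.8% of the Mrpl and Mrps promoters, against 19.1% of those of protein-coding genes.

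Many of these promoters face another gene. A neighboring gene read the other way started within 1000 bases of the start of 21 of the 62 genes (33.9%), against 8.48% of protein-coding genes, 26.2% of respiratory chain genes and 10.2% of cytosolic ribosomal protein genes. The partners include other mitochondrial genes: Mrpl47 faces Ndufb5, a subunit of respiratory complex I, at 308 bases, and Mrps12 faces Sars2, the mitochondrial seryl-tRNA synthetase, at 147 bases. Mrps11 and Mrpl46, singled out after their values were seen, face each other at 42 bases and so join a small-subunit and a large-subunit gene in 1 promoter. The log2 level of Mrps11 was 9.24, 9.26 and 9.44 in cKO 1 to 3 and 9.25, 9.27 and 9.22 in WT 1 to 3. That of Mrpl46 was 7.97, 8.09 and 8.35 in the cKO arrays and 8.10, 8.09 and 8.09 in the WT arrays. Both were highest in cKO 3, and their groups overlapped. These make 20 distinct pairs, of which 11 had a difference of the same sign in both genes. Over the 20 pairs, the groups did not overlap in 2 of the partners that are no members. Among all genes, 6.30% were higher and 7.40% lower without overlap, so such partners were not unusual. The groups of the facing member overlapped in both pairs. Hira, a histone chaperone gene 113 bases from Mrpl40, was at 8.72, 8.64 and 8.71 in the cKO arrays and at 8.56, 8.61 and 8.49 in the WT arrays (log2 fold change 0.14, adjusted p = 0.7, limma), whereas Mrpl40 differed by -0.03. Psma2 (a subunit of the proteasome, 205 bases from Mrpl32), was at 9.89, 9.68 and 9.82 in the cKO arrays and at 10.08, 10.08 and 9.91 in the WT arrays, without overlap (log2 fold change -0.23, adjusted p = 0.661, limma), whereas Mrpl32 itself differed by -0.03.

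Values are log2 levels after robust multichip average (RMA) normalization, and a log2 fold change is the cKO mean minus the WT mean. Levels of different genes rest on different probes and were not ranked. The family was well within the measured range: 64 of the 71 means lay above the median gene level of 7.18, and the means ran from 5.90 to 10.17. No probe set of the 41345 on the arrays passed an adjusted p of 0.05 in limma (0% called, lowest adjusted p 0.417), and so none of the 71 did (lowest 0.586). At an unadjusted p under 0.05 there were 2 members higher in the cKOs, against 2.67% of all genes, and 3 lower, against 2.80% of all genes. The cKO and WT arrays did not overlap in 4 members that were higher (6.30% of all genes) and 5 that were lower (7.40% of all genes). These shares are near the background. The spread allowed small differences only: 66 of 71 members had a 95% confidence interval inside 0.5 log2 units either way (93%, against 87.3% of all genes), and all 71 had one inside 1 log2 unit.

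Wild-type and cKO samples also differed in ways outside this family. Hdac4 itself was at 9.17, 9.14 and 9.21 in the cKO arrays and at 9.22, 9.49 and 9.19 in the WT arrays (log2 fold change -0.13, adjusted p = 0.776, limma), with overlap. By RT-qPCR the paper reported significantly less Hdac4 mRNA in cKO DRGs, at the floxed exons and at others. It also reported less HDAC4 protein there by Western blot. The arrays did not show less Hdac4 mRNA beyond their spread. Which exons the array probes cover is not known here, so the genotype labels are not checked by this value. Sensory neuron markers were high in every array (14 of 16 measured, median log2 fold change 0.02). Skeletal muscle markers had a higher mean in the cKOs in 18 of 18 genes (median 1.00). Of these, 6 were at an unadjusted p under 0.05 in limma (2.67% of all genes were higher). In 5 the groups did not overlap (6.30% of all genes). Their mean deviation was 0.43 in WT 3, beside 0.42 in cKO 1 and 0.19 in cKO 3. WT 1 and WT 2 were low (-0.78 and -1.23). Xist, expressed from the inactive X chromosome, was at 11.74 in cKO 1 but 6.67 and 5.95 in cKO 2 and 3, against 11.60 to 11.71 in the WT arrays. The Y-linked gene Uty was at 4.59, 9.26 and 9.01 in the cKO arrays and at 4.31 to 4.59 in the WT arrays, so cKO 2 and 3 stand apart from the other 4 arrays in sex-linked genes. Differences between the groups therefore run together with sex in cKO 2 and 3. The paper states that its groups were matched for age and sex, which the Xist and Uty values here do not show. For some members the value for cKO 1 alone against the WT arrays is given too.

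**Figure D2:**
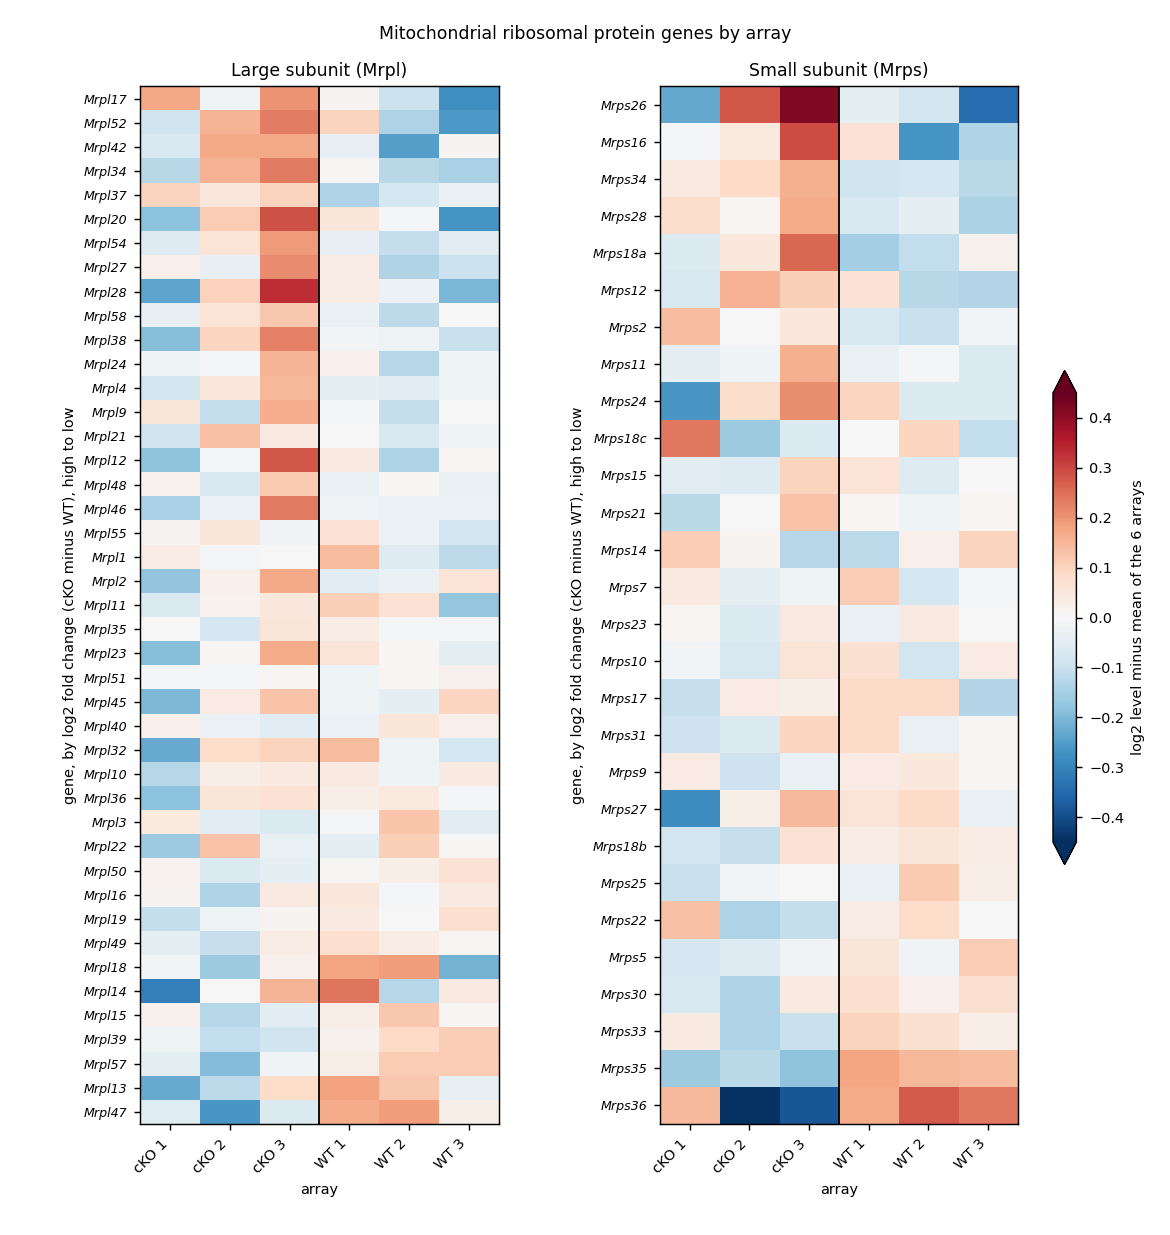
Each cell is the log2 level of 1 gene (rows, ordered by log2 fold change) in 1 array (columns, cKO left of WT) minus the mean of its 6 arrays, for the 43 large-subunit genes and the 28 small-subunit genes. cKO 3 is the sole highest array in 32 of the 71 rows, and the 2 darkest blue cells are Mrps36 in cKO 2 and 3.

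The large-subunit genes were centered on no difference. Of the 43, 21 had a positive and 21 a negative log2 fold change, and Mrpl11 had 0.00. The median was 0.00 (range -0.25 to 0.24), as it was over all genes (0.00, with 50.7% positive). This balance turned on single cKO arrays: 29 were positive without cKO 1, 15 without cKO 3, and 14 (median -0.06) with cKO 1 alone set against the WT arrays. In limma, 1 member was higher and 1 lower at an unadjusted p under 0.05 (2.67% and 2.80% of all genes). The groups did not overlap in 1 higher and 3 lower members (6.30% and 7.40% of all genes).

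Mrpl47, a relative of the bacterial protein at the mouth of the exit tunnel, had the largest difference of the subunit. Its log2 level was 7.69, 7.48 and 7.68 in cKO 1 to 3 and 7.91, 7.93 and 7.77 in WT 1 to 3. All cKO arrays lay below all WT arrays, with 0.08 between the nearest. The mean was 7.62 ± 0.12 in cKOs and 7.87 ± 0.09 in WT (SD, n = 3 each), a log2 fold change of -0.25 (SE 0.09, 0.839-fold). The unadjusted p was 0.0289 and the adjusted p 0.647 in limma. A second, dimmer Mrpl47 probe set gave 4.74, 5.48 and 5.27 in the cKO arrays and 5.25, 5.63 and 5.30 in the WT arrays, a difference of -0.23 with overlapping groups, and a set that also matches Actl6a gave -0.05.

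Mrpl37, a protein found only in mitochondria, was the large-subunit gene that was higher without overlap. It was at 9.64, 9.59 and 9.64 in the cKO arrays and at 9.40, 9.46 and 9.51 in the WT arrays. The highest WT array was 0.08 below the lowest cKO array. The log2 fold change was 0.17 (SE 0.07, 1.12-fold, adjusted p = 0.665, limma), and it was 0.18 with cKO 1 alone set against the WT arrays.

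Mrpl57 and Mrpl39, also mitochondria-specific, were lower in all cKO arrays, each by a narrow margin. Mrpl57 was at 9.30, 9.15 and 9.33 in the cKO arrays and at 9.37, 9.46 and 9.46 in the WT arrays (log2 fold change -0.17, adjusted p = 0.688, limma). Mrpl39 was at 9.63, 9.54 and 9.56 in the cKO arrays and at 9.67, 9.74 and 9.76 in the WT arrays (-0.15, adjusted p = 0.688, limma), or -0.09 for cKO 1 alone. In both, 0.04 separated the nearest arrays of the groups, less than the range within either group.

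The other large-subunit genes with the smallest p had overlapping groups. Mrpl17, a relative of bacterial L17, was at 9.30, 9.11 and 9.33 in the cKO arrays and at 9.14, 9.03 and 8.85 in the WT arrays, where 1 WT array lay above the lowest cKO array (0.24, adjusted p = 0.68, limma). Mrpl13, whose bacterial relative is needed early in assembly of the large subunit, was at 8.28, 8.39 and 8.59 in the cKO arrays and at 8.69, 8.63 and 8.47 in the WT arrays (-0.18). Mrpl42, a mitochondria-specific protein, was at 8.30, 8.54 and 8.54 in the cKO arrays and at 8.33, 8.12 and 8.38 in the WT arrays (0.18, or 0.02 for cKO 1 alone). In Mrpl34, a relative of bacterial L34, the cKO arrays held both the highest and 1 of the lower values, with 9.47, 9.75 and 9.83 in the cKO arrays and 9.60, 9.47 and 9.45 in the WT arrays (0.18). All 4 missed an unadjusted p of 0.05.

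The stalk of the large subunit, which recruits the translation factors that split GTP, did not differ beyond its spread. Mrpl10, which anchors the stalk, was at 9.77, 9.93 and 9.94 in the cKO arrays and at 9.94, 9.88 and 9.94 in the WT arrays (-0.04, adjusted p = 0.912, limma). Mrpl11, at the base of the stalk, was at 8.43, 8.51 and 8.54 in the cKO arrays and at 8.60, 8.56 and 8.32 in the WT arrays, with equal means. Mrpl12, the flexible part of the stalk, which in humans has also been found bound to the mitochondrial RNA polymerase, was at 8.15, 8.32 and 8.61 in the cKO arrays and at 8.37, 8.19 and 8.34 in the WT arrays (0.06). The cKO arrays thus spanned 0.46 in Mrpl12, the WT arrays 0.18. The 95% confidence intervals were -0.22 to 0.14 for Mrpl10, -0.23 to 0.23 for Mrpl11 and -0.25 to 0.37 for Mrpl12.

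The steadiest member was Mrpl51, named after its values were seen, whose 6 arrays lay within 0.04 of each other (9.58, 9.58 and 9.60 in the cKO arrays, 9.57, 9.60 and 9.61 in the WT arrays). The widest ranges in the large subunit belonged to Mrpl28 (0.57), Mrpl20 (0.55) and Mrpl14 (0.55). Mrpl28, a relative of bacterial L28, was at 7.81, 8.15 and 8.38 in the cKO arrays and at 8.08, 8.02 and 7.84 in the WT arrays. Mrpl20, whose bacterial relative acts in assembly, was at 7.80, 8.10 and 8.27 in the cKO arrays and at 8.04, 7.98 and 7.72 in the WT arrays. In both, cKO 1 was at or near the bottom and cKO 3 at the top, so that the cKO arrays enclosed nearly all WT arrays. Mrpl14, a relative of bacterial L14, was at 7.15, 7.46 and 7.61 in the cKO arrays and at 7.70, 7.33 and 7.50 in the WT arrays (-0.10). The log2 fold changes of Mrpl28 and Mrpl20, 0.13 and 0.14, became -0.17 and -0.11 with cKO 1 alone set against the WT arrays.

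The small-subunit genes were also centered close to no difference. Of the 28, 11 had a positive and 17 a negative log2 fold change, with a median of -0.01 (range -0.45 to 0.31), beside 0.00 over all genes. One was higher and 2 were lower at an unadjusted p under 0.05, and the groups did not overlap in 3 higher and 2 lower genes. By origin, the 12 genes for mitochondria-specific proteins had a median of -0.07 with 3 positive, and the 15 of bacterial families a median of 0.00 with 8 positive. In the large subunit the medians were 0.04 (15 mitochondria-specific) and -0.01 (28 of bacterial families).

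Mrps35, a mitochondria-specific protein of the small subunit, had the smallest p of the family. Its log2 level was 7.85, 7.89 and 7.83 in cKO 1 to 3 and 8.19, 8.16 and 8.15 in WT 1 to 3. The cKO arrays lay close together and the WT arrays did too, with 0.26 between the groups. The mean was 7.86 ± 0.03 in cKOs and 8.17 ± 0.02 in WT (SD, n = 3 each), a log2 fold change of -0.31 (SE 0.06, 95% confidence interval -0.46 to -0.16, 0.807-fold). The unadjusted p was 0.00228, and the adjusted p of 0.586 in limma did not pass. An exact permutation test of the 3 against 3 arrays cannot go below p = 0.1, which is what any gene without overlap gives. The difference lay between -0.33 and -0.30 when each array was left out in turn, and was -0.32 for cKO 1 alone against the WT arrays. The part of sex in this value was not tested. Across 13 other settings the adjusted p ran between 0.329 and 0.892.

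Mrps36 had the largest log2 fold change of the family, but cKO 1 did not share it. It was at 6.21, 5.62 and 5.68 in the cKO arrays and at 6.23, 6.34 and 6.30 in the WT arrays. cKO 1 sat 0.02 below the lowest WT array, and cKO 2 and 3 were far below. The log2 fold change was -0.45 (SE 0.16, 0.73-fold, unadjusted p = 0.0282, adjusted p = 0.647, limma). It was -0.08 for cKO 1 alone and -0.64 without cKO 1 (adjusted p = 0.217, limma). The low arrays are those with low Xist and high Uty, and the part of sex in this value was not tested. The protein named Mrps36 has since been assigned to the 2-oxoglutarate dehydrogenase complex of the citric acid cycle, and it was kept here because the rule goes by symbol.

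Mrps34, whose mutation in mice destabilizes the small subunit, was higher in all cKO arrays. It was at 8.06, 8.11 and 8.18 in the cKO arrays and at 7.93, 7.94 and 7.90 in the WT arrays. The nearest arrays of the groups were 0.12 apart, as wide as the whole cKO range. The mean was 8.12 ± 0.06 in cKOs and 7.92 ± 0.02 in WT (SD, n = 3 each), a log2 fold change of 0.19 (SE 0.07, 1.14-fold, unadjusted p = 0.0272, adjusted p = 0.647, limma). A probe set shared with the nucleoside diphosphate kinase gene Nme3 also separated the groups, at 8.80, 8.91 and 8.96 in the cKO arrays and 8.63, 8.64 and 8.67 in the WT arrays (0.24, adjusted p = 0.64, limma).

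Mrps28 and Mrps2 were also higher without overlap, but by less. Mrps28, a relative of bacterial S1, was at 7.55, 7.48 and 7.64 in the cKO arrays and at 7.40, 7.43 and 7.33 in the WT arrays (0.17, adjusted p = 0.681, limma). Mrps2, a relative of bacterial S2, was at 8.50, 8.36 and 8.41 in the cKO arrays and at 8.29, 8.26 and 8.35 in the WT arrays (0.12, adjusted p = 0.721, limma). The gaps were 0.05 and 0.01, so Mrps2 separated the groups by hardly more than the rounding of the deposited values.

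**Figure D3:**
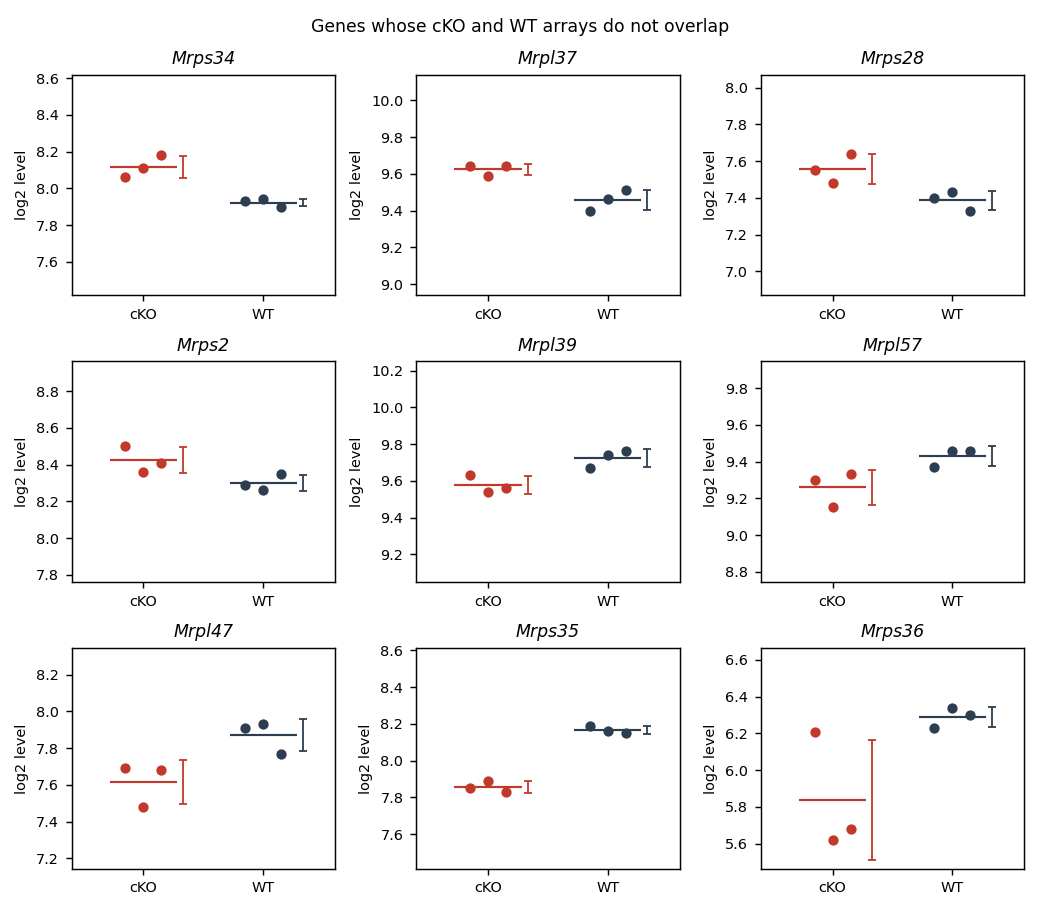
Log2 level (y axis, 1.2 log2 units high in every panel) of the 9 genes whose cKO and WT arrays do not overlap. Points are cKO arrays (left) and WT arrays (right), lines the means and bars at the side the SD (n = 3 each). Mrps35 has the widest gap, 0.26, and in Mrps36 cKO 1 (6.21) lies beside the WT arrays.

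The remaining small-subunit genes with low p values overlapped. Mrps16, a relative of bacterial S16, was at 7.05, 7.10 and 7.35 in the cKO arrays and at 7.12, 6.79 and 6.92 in the WT arrays (0.22, adjusted p = 0.706, limma), and its second probe set gave 0.34. Mrps33, a mitochondria-specific protein, was at 9.40, 9.22 and 9.26 in the cKO arrays and at 9.46, 9.43 and 9.39 in the WT arrays (-0.13), where cKO 1 alone overlapped. Mrps26, also mitochondria-specific, had the widest range of the family, with 7.88, 8.39 and 8.53 in the cKO arrays and 8.07, 8.03 and 7.77 in the WT arrays. Its log2 fold change of 0.31 (SE 0.18) was smaller than the distance of 0.65 between cKO 1 and cKO 3, and it was -0.08 for cKO 1 alone. Mrps12, a relative of the bacterial decoding-center protein S12, was at 6.88, 7.11 and 7.06 in the cKO arrays and at 7.02, 6.83 and 6.82 in the WT arrays (0.13, 95% confidence interval -0.11 to 0.36). Mrps5, a relative of bacterial S5, was at 9.22, 9.24 and 9.28 in the cKO arrays and at 9.35, 9.28 and 9.41 in the WT arrays, so that the groups touched at 9.28 (-0.10).

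The 3 Mrps18 genes are paralogs, and their values shared no direction. Mrps18c was counted among the bacterial families, Mrps18a and Mrps18b among the mitochondria-specific proteins, since the structural nomenclature gives these proteins no bacterial position. Mrps18a was at 8.84, 8.95 and 9.16 in the cKO arrays and at 8.75, 8.79 and 8.92 in the WT arrays (0.16, or 0.02 for cKO 1 alone, adjusted p = 0.738, limma). Mrps18b was at 8.52, 8.50 and 8.67 in the cKO arrays and at 8.64, 8.66 and 8.64 in the WT arrays (-0.08). Mrps18c was at 7.50, 7.10 and 7.20 in the cKO arrays and at 7.26, 7.36 and 7.15 in the WT arrays (0.01, or 0.24 for cKO 1 alone). All 3 pairs of groups overlapped. Their second probe sets pointed elsewhere. For Mrps18b the second set gave 8.61, 8.61 and 8.53 in the cKO arrays and 8.45, 8.35 and 8.31 in the WT arrays, higher without overlap (0.21, adjusted p = 0.644, limma). For Mrps18c it gave 5.73, 6.09 and 6.23 in the cKO arrays and 6.26, 6.28 and 6.44 in the WT arrays, lower without overlap (-0.31). Of the 9 members with a second probe set, the sign matched in 3 (Mrpl47, Mrps16 and Mrps5). The differences in Mrpl10, Mrpl12, Mrpl36, Mrps17, Mrps18b and Mrps18c were -0.04, 0.06, -0.04, -0.03, -0.08 and 0.01 by the chosen set and 0.00, -0.19, 0.24, 0.09, 0.21 and -0.31 by the second. For cKO 1 alone the chosen set of Mrpl36 gave -0.21. What separates the sets of a gene, such as exons or copies of the gene, was not tested. In structures of the particle the proteins of Mrps18a and Mrps30 sit in the large subunit, and counted by structure, without Mrps36, the medians were 0.00 for 45 large-subunit and -0.01 for 25 small-subunit genes.

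**Figure D4:**
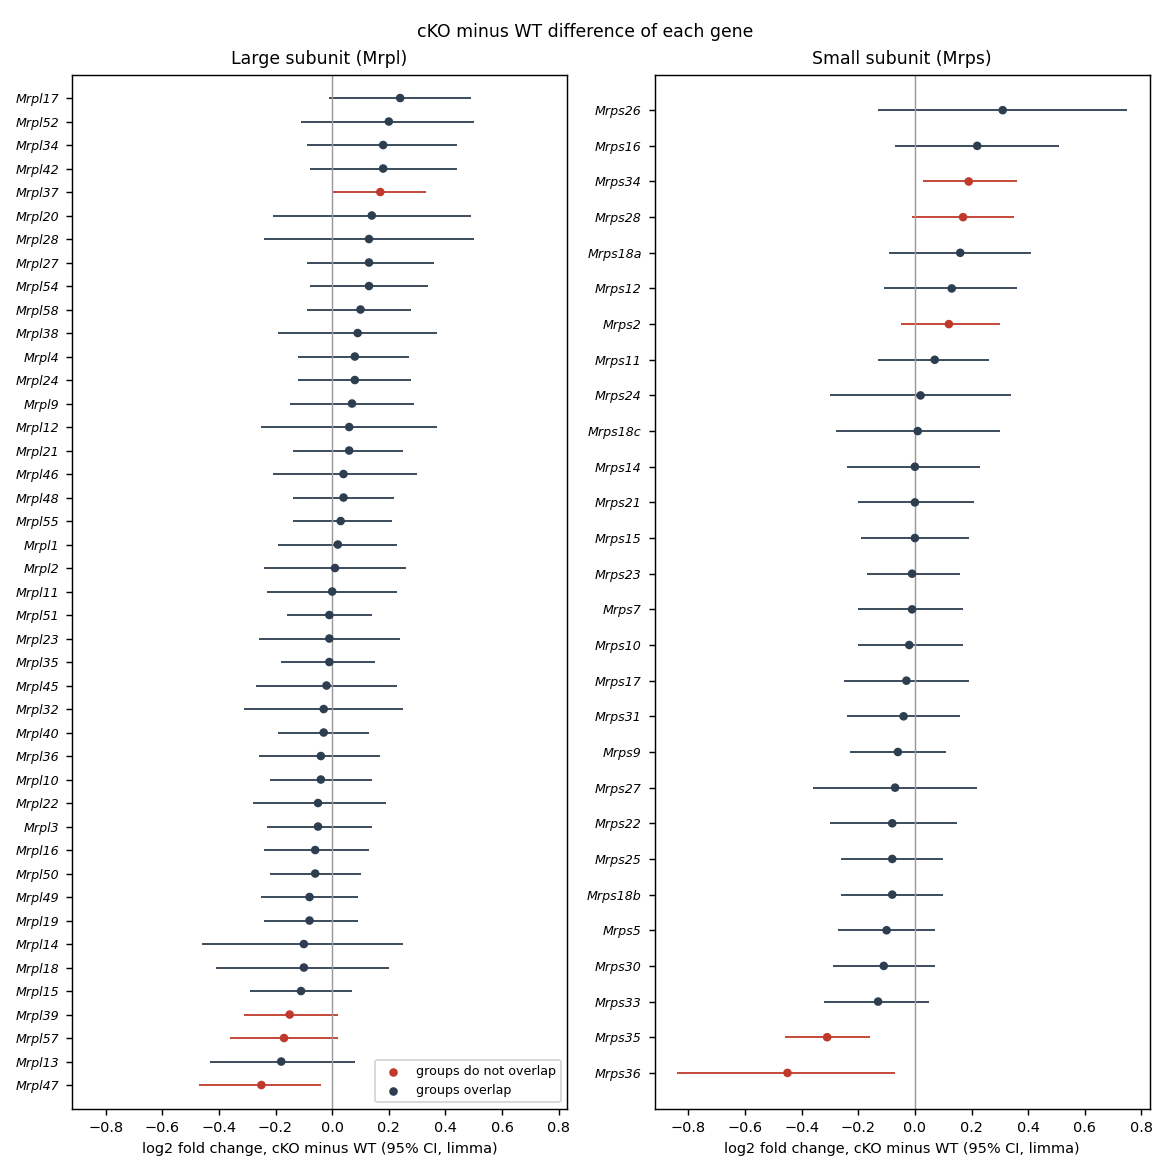
Log2 fold change, cKO minus WT (x axis), of every large-subunit and small-subunit gene with its 95% confidence interval from limma (n = 3 each). Red marks genes whose groups do not overlap. The intervals of 5 genes leave out zero, that of Mrpl37 by less than the rounding (Mrpl47, Mrpl37, Mrps35, Mrps34 and Mrps36), and none of the 71 passed an adjusted p of 0.05.

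Most members spread more among the cKO arrays than among the WT arrays. The SD of the cKO arrays exceeded that of the WT arrays in 54 of 71 members (76.1%), against 61.6% of all genes and 67.2% of genes above the median level. The median SD was 0.10 in cKOs and 0.06 in WT, beside 0.11 and 0.08 over all genes and 0.09 and 0.06 over genes above the median level. cKO 3 was the sole highest of the 6 arrays in 32 members (45.1%, against 22.8% of all genes and 32.6% of genes above the median level). cKO 1 was the sole lowest in 22 (31%, against 19% and 22.3%). The level in cKO 3 exceeded that in cKO 1 in 53 of 71 members (74.6%), against 52% of all genes and 61.9% of genes above the median level, and the median distance was 0.12 (0.13 in the large and 0.10 in the small subunit), against 0.01 and 0.05. It was over 0.3 in 17 members and widest in Mrps26 (0.65) and Mrpl28 (0.57), while Mrps36 ran the other way (-0.53). Averaged over the large-subunit genes, the arrays deviated from their common mean by -0.07, 0.00 and 0.10 in cKO 1 to 3 and by 0.03, -0.02 and -0.04 in WT 1 to 3. For the small subunit the deviations were -0.03, -0.03 and 0.05 in the cKO arrays and 0.03, 0.00 and -0.02 in the WT arrays. The order of the cKO arrays in the large subunit was also present in cytosolic ribosomal protein genes (-0.04, 0.02 and 0.09) and respiratory chain genes (-0.05, 0.05 and 0.09). Genes for assembly of the mitochondrial ribosome had it (-0.06, 0.00 and 0.06). Mitochondrial translation factors (-0.05, 0.02 and -0.01), aminoacyl-tRNA synthetases (-0.04, 0.02 and 0.02) and genes for mitochondrial DNA expression (-0.05, 0.03 and 0.01) did not. In these, cKO 1 was the lowest cKO array, but cKO 3 did not lie above cKO 2. All genes above the median level had the order with smaller values (-0.03, 0.00 and 0.02), so it was not particular to the ribosomal and respiratory chain genes. Markers of satellite glia and Schwann cells (9 genes) had it too, with -0.04, 0.02 and 0.07 in the cKO arrays and 0.03, -0.06 and -0.02 in the WT arrays, and 5 of the 9 were highest in cKO 3. Sensory neuron markers stayed between -0.02 and 0.01 in all 6 arrays. Fibroblast markers (-0.05, -0.01 and -0.02 in cKO 1 to 3) and adipocyte markers (-0.09, 0.46 and -0.09) did not have the order. Skeletal muscle markers followed another order, with 0.42, 0.98 and 0.19 in the cKO arrays and -0.78, -1.23 and 0.43 in the WT arrays. The part of other cell types in the order of the arrays was not tested.

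**Figure D5:**
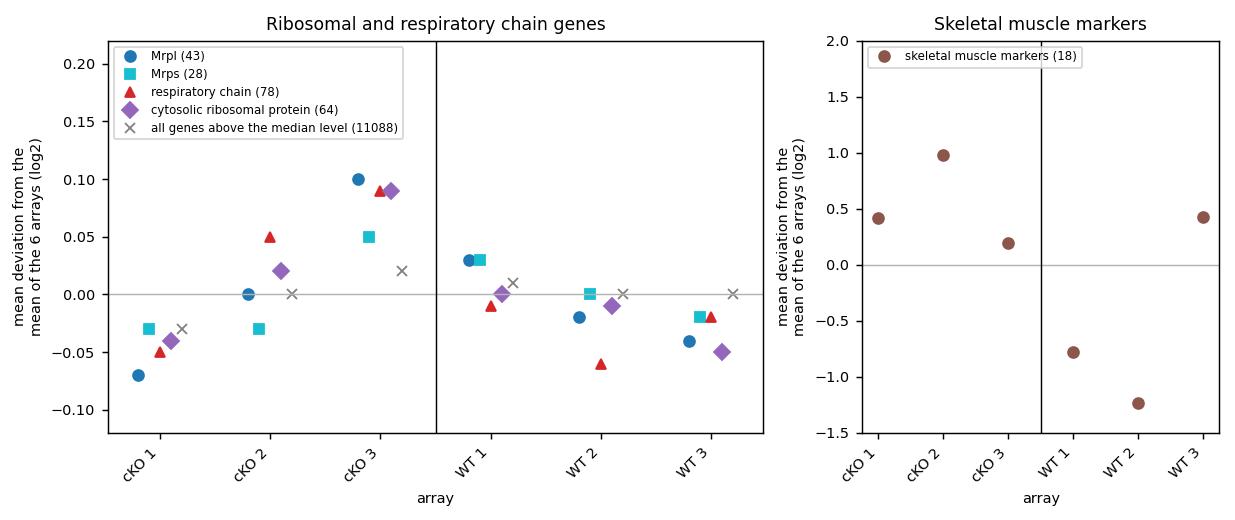
Mean deviation of each array (x axis, cKO left of WT) from the mean of its 6 arrays, on the log2 scale (y axis), averaged over the genes of each set (number in brackets). Left, ribosomal and respiratory chain genes and all genes above the median level, with cKO 3 highest in each set. Right, skeletal muscle markers on a wider axis, with cKO 2 highest (0.98).

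The nearest comparable sets lay a little higher in the cKOs. Nuclear-encoded respiratory chain subunits, most of which have partners that the mitochondrial ribosome makes, had a positive log2 fold change in 55 of 78 genes (70.5%). Their median was 0.05. Without the muscle forms Cox6a2, Cox7a1 and Cox8b, 52 of 75 were positive, with a median of 0.04. Cytosolic ribosomal protein genes, for the ribosome outside mitochondria, were positive in 42 of 64 (65.6%) with a median of 0.07. The mitochondrial ribosomal protein genes were positive in 32 of 71 (45.1%) with a median of -0.01. In cKO 1 the mean deviation of the respiratory chain genes was -0.05, against -0.01, -0.06 and -0.02 in WT 1 to 3. That of the cytosolic ribosomal protein genes was -0.04, against 0.00, -0.01 and -0.05. The higher medians thus rest on cKO 2 and 3, and the part of sex in them was not tested. At an unadjusted p under 0.05 in limma, 5 of 78 respiratory chain genes were higher and 2 lower. Without the muscle forms 4 of 75 were higher and 2 lower. Of the 64 cytosolic ribosomal protein genes, 3 were higher and 0 lower. Among all genes, 2.67% were higher and 2.80% lower. The sets were chosen with results known, so whether they differ from each other was not tested.

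Genes that work with the mitochondrial ribosome gave as little. Of the other proteins of the particle, 3 of 5 were measured, with differences between -0.03 for Ptcd3, which binds RNA in the small subunit, and 0.11 for Gadd45gip1, in the large subunit. Among 12 measured translation factors the median was -0.03 and 0 passed an unadjusted p of 0.05 in limma. Mtif3, an initiation factor, was at 7.48, 7.53 and 7.71 in the cKO arrays and at 7.41, 7.30 and 7.45 in the WT arrays (0.19). Gfm2, which splits ribosomes for recycling, was at 8.15, 8.08 and 8.12 in the cKO arrays and at 8.23, 8.24 and 8.23 in the WT arrays (-0.12). In neither did the groups overlap.

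Of 20 assembly genes, 1 was lower and 0 were higher at an unadjusted p under 0.05 (2.80% and 2.67% of all genes). This was Tfb1m, which methylates the ribosomal RNA of the small subunit, at 9.95, 9.77 and 9.86 in the cKO arrays and 10.05, 10.17 and 10.06 in the WT arrays (-0.23, unadjusted p = 0.0242, limma). All its cKO arrays lay below its WT arrays. Gtpbp10, a GTPase that acts in maturation of the large subunit, was at 7.43, 7.58 and 7.72 in the cKO arrays and at 7.72, 7.79 and 7.82 in the WT arrays (-0.20), where the groups touched. Among 16 mitochondrial aminoacyl-tRNA synthetases, which charge tRNAs for this ribosome, 0 passed an unadjusted p of 0.05 (median 0.03). Yars2, for tyrosine, was at 8.14, 8.43 and 8.45 in the cKO arrays and at 8.57, 8.53 and 8.51 in the WT arrays (-0.20). The nearest arrays of its groups were 0.06 apart. Rars2, for arginine, differed by -0.10, and its groups did not overlap either. Of 16 genes for the copying and transcription of mitochondrial DNA, 1 was higher at an unadjusted p under 0.05 (2.67% of all genes). This was Esrra, a nuclear receptor that drives mitochondrial genes. It was at 8.38, 8.47 and 8.49 in the cKO arrays and at 8.18, 8.15 and 8.28 in the WT arrays (0.24, adjusted p = 0.64, limma). Its groups did not overlap. Mterf1b, of the mitochondrial termination factor family, gave 0.31 at a level near the bottom of the scale (3.48, 3.92 and 3.27 in the cKO arrays, 3.32, 3.24 and 3.18 in the WT arrays), with overlap. The messages that this ribosome translates could not be followed, since 0 of the 15 listed mitochondrial genes had a probe set with a single symbol here.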

How the data were processed

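RNA of 6 lumbar DRG samples was hybridized to Mouse Gene 2.0 ST arrays. The authors normalized them with oligo and RMA, and the deposited table holds log2 values for 41345 probe sets (array medians 6.43 to 6.50, correlations between arrays 0.987 to 0.994). RMA sets the arrays to a common distribution, so shifts of all genes are removed. Versions of the authors' tools and the signal over background are not given in the sources used here, so precision is limited by having 3 arrays a group. Genes were named from the platform annotation, where 23521 probe sets have 1 symbol, and checked against RefSeq, which lists 78 symbols of this family. All probe sets were fitted with limma 3.58.1 in R 4.3.3 (lmFit and eBayes, group only, prior degrees of freedom 2.51) and adjusted by Benjamini-Hochberg over all of them. The fit was tested on simulated data. The members and lists were chosen with earlier results of these data known. Named members are, per subunit, the 8 with the smallest p and the 2 with the widest range, those without overlap between groups, the Mrps18 paralogs, the stalk genes, Mrps12 and those with a second probe set. From each other list, at most the 2 genes with the smallest p are described. Xist, Uty, the muscle forms of cytochrome oxidase, Mrpl14 and the facing genes were named after their values were seen. Same-numbered cKO and WT arrays did not deviate alike from their group means (correlations -0.039, -0.079 and -0.077), and the samples were fitted as unpaired. The paper names littermate controls and RNA processing in matched groups. Whether the samples form pairs cannot be told from these correlations. Alternatives were cyclic loess, probe sets above the median level, single-symbol probe sets, trend and robust eBayes, array weights, a replicate block, each array left out, a term for cKO replicates 2 and 3, the mean over probe sets, and grouping by structure.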

Additional observations from a re-analysis of the deposited data

How the results depend on the processing

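Over 14 alternatives, the 28 named members gave 372 values. Of these, 352 kept their direction, 20 reversed it and 0 passed an adjusted p of 0.05 in limma (lowest 0.217). Over all probe sets 9 passed without cKO replicate 1. That setting leaves only cKO 2 and 3, with low Xist and high Uty, against the WT arrays. Genotype and sex therefore cannot be told apart in it, nor in the counts without cKO 1 given below. The count of large-subunit members at an unadjusted p under 0.05, 2 as reported, was 5 with probe sets above the median level, 5 with trend and robust, 0 with the replicate block, 0 with a term for cKO replicates 2 and 3, 1 with the mean over probe sets, and 0 to 4 with 1 array left out (4 without cKO 1, 1 without cKO 2 or WT 1, 0 without WT 2). That of the small subunit, 3 as reported, was 1 to 5 with 1 array left out (5 without cKO 1, 1 without cKO 2, cKO 3, WT 2 or WT 3) and 2 with the replicate block. The count of positive large-subunit members, 21 as reported, was 14 with the term for cKO replicates 2 and 3 (median -0.06), 29 without cKO replicate 1 and 15 without cKO replicate 3. The small-subunit median ranged between -0.05 and 0.01 with 1 array left out, and was -0.05 without cKO replicate 3. Under the replicate block 0 probe sets passed the adjusted threshold, and it was not run for the other lists. Reversed values with 1 array left out were up to 0.01 for Mrpl10 (range -0.07 to 0.01), down to -0.07 for Mrpl12 (to 0.17), up to 0.04 for Mrpl36 (from -0.09), up to 0.02 for Mrps17 (from -0.10) and down to -0.11 for Mrps18c (to 0.09). With the term for cKO replicates 2 and 3, which leaves cKO 1 against WT, Mrpl12 was -0.15, Mrpl20 -0.11, Mrpl28 -0.17, Mrpl34 -0.04, Mrps12 -0.01 and Mrps26 -0.08. With the mean over probe sets, Mrpl12 was -0.06, Mrpl36 0.10, Mrps17 0.03, Mrps18b 0.07 and Mrps18c -0.15, and with array weights Mrps18c was -0.07. The cause was not tested. With 3 arrays a group, the median half-width of the members' 95% confidence intervals was 0.20.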

Other observations

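The 7 symbols without a probe set of their own were seen through shared probe sets. The set for Mrps6 and Slc5a3 was at 9.26, 9.04 and 9.24 in the cKO arrays and at 9.31, 9.35 and 9.30 in the WT arrays, lower without overlap (log2 fold change -0.14, adjusted p = 0.724, limma). The set for Mrpl41 and Dph7 was at 7.95, 8.14 and 8.26 in the cKO arrays and at 7.87 and 7.86 in WT 2 and 3, with WT 1 above the lowest cKO array (0.21, adjusted p = 0.691, limma). The sets that hold Mrpl30, Mrpl43 and Mrpl44 gave 0.03, 0.02 and 0.01, those of Mrpl33 gave -0.03 and -0.11, and those of Mrpl53 gave 0.05 and 0.10. A second probe set that holds Mrpl19 together with Gcfc2, a gene for a nuclear protein, was at 5.97, 6.17 and 6.14 in the cKO arrays and at 6.42, 6.39 and 6.33 in the WT arrays (-0.29, adjusted p = 0.64, limma), while Mrpl19's own set gave -0.08. Which of the genes on a shared set carries its signal cannot be told apart.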
